A study of Mus musculus with 18 samples.

Results

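Cytochrome P450 families 1 to 3 hold the enzymes that mammals use to oxidise drugs, toxins, steroids and fatty acids. The genes were taken by annotation alone: every protein-coding row whose symbol is Cyp, a family number from 1 to 3, a subfamily letter and a gene number. That gave 58 of the 52636 genes in the deposited tables, in 16 subfamilies, of which Cyp2c (15 genes), Cyp2d (8), Cyp2j (8) and Cyp3a (7) are the largest. Poly-A RNA came from Pcgf6 knockout (KO) and wild-type (WT) males of the C57BL/6 strain aged 8 weeks. The tissues were liver, brain and testis, with 3 libraries for each genotype and tissue, 18 in all. The libraries are named here by the numbers in their titles, KO 4 to KO 6 and WT 1 to WT 3 in each tissue. The labels do not give the allele design, the promoter of any Cre line, or whether the 3 libraries of a group come from separate animals. The p-values therefore measure the spread between libraries. Whether that spread is technical or lies between animals was not tested in either genotype. Pcgf6 encodes a subunit of a noncanonical Polycomb repressive complex that represses germline genes.

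P450 enzymes sit in the membrane of the endoplasmic reticulum, carry a haem group, and receive electrons from a shared reductase. Family 1 genes are induced through the dioxin receptor (Ahr), and many genes of families 2 and 3 through the nuclear receptors CAR and PXR, mostly in hepatocytes. In mouse liver several Cyp2a, Cyp2b, Cyp2c, Cyp2d and Cyp3a genes also differ between males and females under the control of growth hormone.

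The targeted gene was measured first. In FPKM, the deposited unit (reads per kilobase of gene length, scaled per library), Pcgf6 (chr19:47033619-47050845, mm10) had 2.66, 1.66 and 1.44 in KO livers, against 4.99, 4.08 and 5.66 in WT livers. In brain it had 3.30, 4.20 and 4.42 in KO libraries, against 4.58, 5.18 and 5.29 in WT libraries. Testis gave 10.6, 9.58 and 9.58 in KO libraries, against 20.4, 19.9 and 22.3 in WT libraries. In each tissue the KO values all lay under the WT values, although reads remained in all KO libraries. The log2 fold change from limma was -1.35 ± 0.24 (SE) in liver, with an adjusted p of 0.485. It was -0.34 ± 0.12 in brain, with an adjusted p of 0.9998, and -1.06 ± 0.09 in testis, with an adjusted p of 0.0638. Total reads per library ran between 18990130 and 23529098. Alb, the defining hepatocyte transcript, had 32431 to 40586 FPKM in liver, the summed neuron markers reached 5873 to 6308 CPM (recovered reads scaled to the library total) in brain, and the summed spermatid markers 14362 to 20686 CPM in testis.

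Liver held nearly all of the P450 RNA. The 58 genes summed to 13282 ± 449 FPKM in KO livers and 12860 ± 353 FPKM in WT livers (SD, n = 3 each), which was 1.99% ± 0.0284 of all reads in KO livers and 1.98% ± 0.105 in WT livers. In brain the sum was 27.2 ± 2.59 FPKM in KO and 26.3 ± 2.64 FPKM in WT libraries, and in testis 34.9 ± 2.42 FPKM in KO and 35.3 ± 1.73 FPKM in WT libraries. In liver 35 of the 58 genes averaged at least 1 FPKM over the 6 libraries, 29 at least 10 and 20 at least 100. In brain 7 genes reached 1 FPKM and 0 reached 10, while in testis 7 reached 1 FPKM and 1, Cyp2d26, reached 10. Of the 58 genes, 44 had their highest mean in liver, 10 in testis and 4 in brain. Genes without any read numbered 9 in liver, 13 in brain and 4 in testis. A count of 0 over the 6 libraries of a tissue allows up to 0.0240 CPM in liver, 0.0227 in brain and 0.0226 in testis, for counting error only. These are bulk tissues, in which fewer cells of a type and less RNA per cell cannot be told apart.

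**Figure D1:**
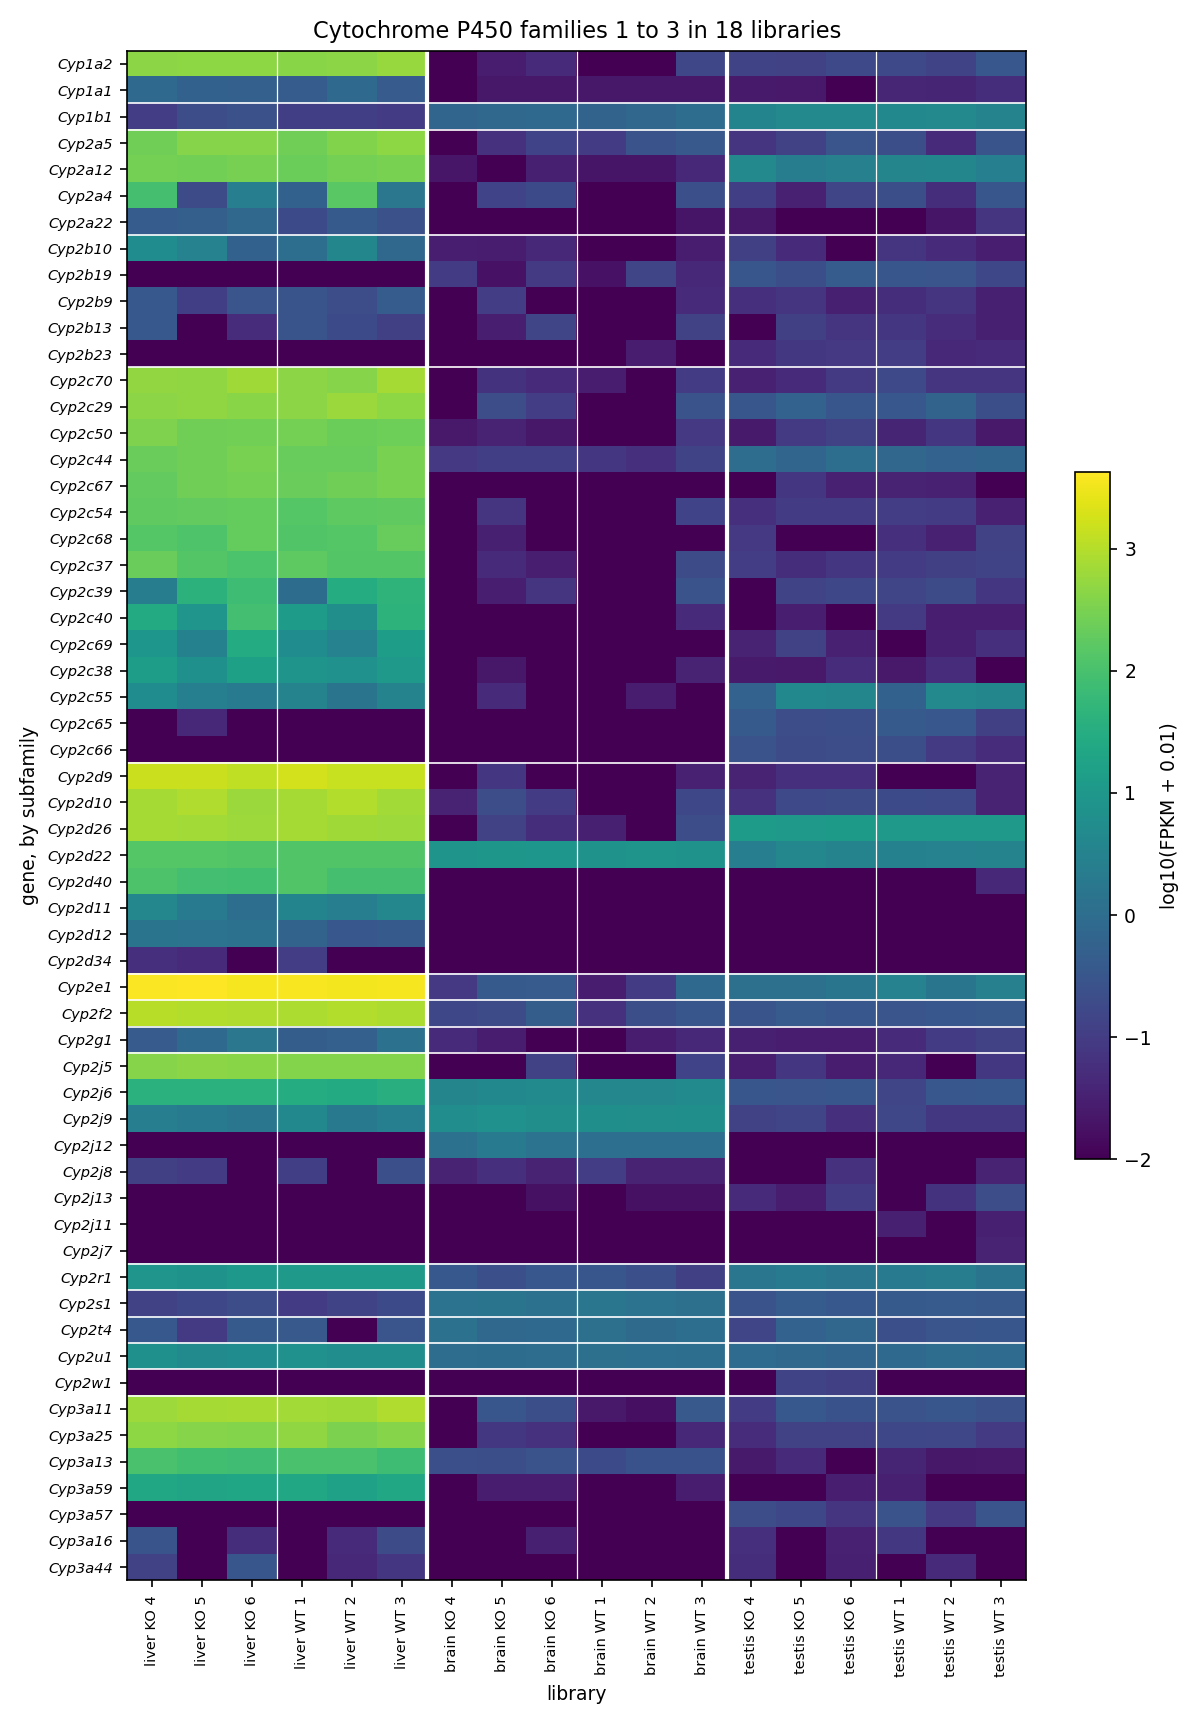
Level of each of the 58 genes (rows, grouped by subfamily) in each of the 18 libraries (columns, KO left of WT within a tissue), as log10(FPKM + 0.01). Bright rows fill the 6 liver columns; Cyp2d22, Cyp2j9 and Cyp2j6 stand out in brain, and Cyp2d26, Cyp1b1 and Cyp2a12 in testis.

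Among the liver genes the order of levels was steep. Cyp2e1, which oxidises ethanol and acetone, was the highest, with 3917, 4249.7 and 3611 FPKM in KO livers, against 3654, 3436 and 3475 FPKM in WT livers. The groups overlapped. Cyp2d9, a male-biased testosterone hydroxylase, followed at 1417 ± 153 FPKM in KO and 1533 ± 186 FPKM in WT livers. Next came Cyp2f2, which oxidises naphthalene, at 973 ± 89.9 FPKM in KO and 895 ± 53.4 FPKM in WT livers. Cyp2d10, Cyp3a11 and Cyp2d26 formed a group at 605 to 939 FPKM whose library ranges overlapped, so their order is not fixed by these data. Cyp3a11 is the main PXR-induced gene of mouse liver. Cyp1a2, the caffeine-oxidising gene of family 1, had 458 ± 8.22 FPKM in KO and 484 ± 69.7 FPKM in WT livers, while its neighbour Cyp1a1, which needs dioxin-receptor activation, had 0.637 ± 0.167 FPKM in KO and 0.554 ± 0.231 FPKM in WT livers. Cyp2c70, which makes the muricholic acids of mouse bile, had the highest mean of the Cyp2c genes, at 495.7 to 677 FPKM in KO and 394 to 743 FPKM in WT livers, and overlapped with Cyp2c29, at 418 to 505 FPKM in KO and 443 to 594 FPKM in WT livers. Cyp2j5, an arachidonic acid epoxygenase, was the highest Cyp2j gene at 378.7 to 437 FPKM.

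The liver comparison asked whether loss of Pcgf6 altered the P450 genes. A gene was tested if 3 or more of the 6 libraries held 10 or more reads of it, which left 40 P450 genes. Of these 0 passed an adjusted p of 0.05 in limma, where 0.0212% of all 14124 tested genes did. With voom on the recovered reads the count was also 0. At an unadjusted p of 0.05, 4 of the 40 (10%) passed (Cyp2d12, Cyp2j6, Cyp2a22 and Cyp2r1), beside 4.38% of all tested genes. The liver libraries were also treated as paired by replicate number, a reading taken from these same data, although no label says what the number stands for. With that number as a block, 8 of the 40 (20%) passed at an unadjusted p of 0.05, beside 7.61% of all tested genes. Cyp2c40, Cyp2c39, Cyp2c50 and Cyp2c69 were the 4 added, and 0 passed the adjusted threshold. KO and WT libraries did not overlap for 5 of the 40 genes, 4 with every KO above every WT library and 1 with every KO below, which is 12.5% beside 9.52% of all tested genes. The median log2 fold change was 0.08 over the 40 genes and 0.00 over all tested genes. For 33 of the 40 the estimate lay within 0.5 of 0, and for 28 the whole 95% interval lay between -1 and 1, so for the rest larger changes were inside the interval.

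The lowest p of the family belonged to Cyp2d12 (chr15:82555108-82559413, mm10), a gene of the Cyp2d cluster that was low in every liver. It had 1.48, 1.40 and 1.24 FPKM in KO livers, against 0.607, 0.324 and 0.374 FPKM in WT livers, from 30, 35 and 26 reads and from 13, 8 and 9 reads. Every KO liver was above every WT liver. The log2(FPKM + 0.1) difference was 1.49 ± 0.24 (SE) with an unadjusted p of 0.000374 and an adjusted p of 0.406. Over the alternatives its adjusted p ran from 0.000747 to 0.935, and it passed in 1 of them, a single model over all 18 libraries. No read of Cyp2d12 was found in brain or testis. Those libraries therefore added no spread to the single model, which lowers the pooled variance behind that call.

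Cyp2j6, an epoxygenase found in many tissues, had 39.3, 39.3 and 38.6 FPKM in KO livers, against 30.7, 27.3 and 35.1 FPKM in WT livers. The groups did not overlap, but the log2 difference of 0.34 ± 0.10 had an adjusted p of 0.904. Cyp2j5 had 411, 437 and 417 FPKM in KO livers, against 381, 379 and 384 FPKM in WT livers, again without overlap (0.14 ± 0.07, adjusted p = 0.9997). Cyp2r1, which carries out the first hydroxylation of vitamin D, was the gene with every KO below every WT liver, at 8.77, 7.93 and 9.82 FPKM in KO and 10.8, 10.5 and 10.5 FPKM in WT libraries (-0.26 ± 0.11, adjusted p = 0.9997). Cyp2a22 had 0.416, 0.505 and 0.740 FPKM in KO livers, against 0.175, 0.379 and 0.234 FPKM in WT livers, and rested on 18 to 33 reads in KO libraries and 8 to 20 in WT libraries. Every KO liver was again above every WT liver (0.86 ± 0.30, adjusted p = 0.9997).

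In other liver genes the genotypes overlapped. Cyp2c54, an arachidonic acid oxidase, had 178, 185 and 201 FPKM in KO livers, against 138, 174 and 180 FPKM in WT livers (0.21 ± 0.12, adjusted p = 0.9997), and its neighbour Cyp2c50 had 352, 259.9 and 266 FPKM in KO livers, against 285, 226 and 238 FPKM in WT livers (0.22 ± 0.15, adjusted p = 0.9997). Cyp2d11 had 4.11, 2.03 and 1.07 FPKM in KO livers, against 3.41, 2.55 and 4.01 FPKM in WT livers (-0.62 ± 0.44, adjusted p = 0.9997). Cyp2g1, known from olfactory mucosa, had 0.971 ± 0.657 FPKM in KO and 0.773 ± 0.496 FPKM in WT livers. Cyp2w1, of which no read was found in liver or brain, had 0, 5 and 4 reads in KO testes, against 0 reads in each WT testis, too few to be tested.

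No subfamily held a called gene. Of 13 tested Cyp2c genes 11 had a higher estimate in KO, with a median of 0.21 and a range from -0.15 to 0.86. Of 7 tested Cyp2d genes 2 had a higher estimate, with a median of -0.09. The 4 tested Cyp3a genes stayed between -0.08 and 0.05, and Cyp1a2 stood at -0.07 ± 0.11. Summed over each family in CPM, family 1 gave 617 ± 14.5 in KO and 667 ± 105 in WT livers, family 2 gave 16040 ± 351 in KO and 15698 ± 603 in WT livers, and family 3 gave 3259 ± 215 in KO and 3410 ± 449 in WT livers (SD, n = 3 each). Exact two-sided permutation tests gave p = 0.7, 0.5 and 0.6 for families 1, 2 and 3, where 3 against 3 libraries cannot go below 0.1.

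**Figure D2:**
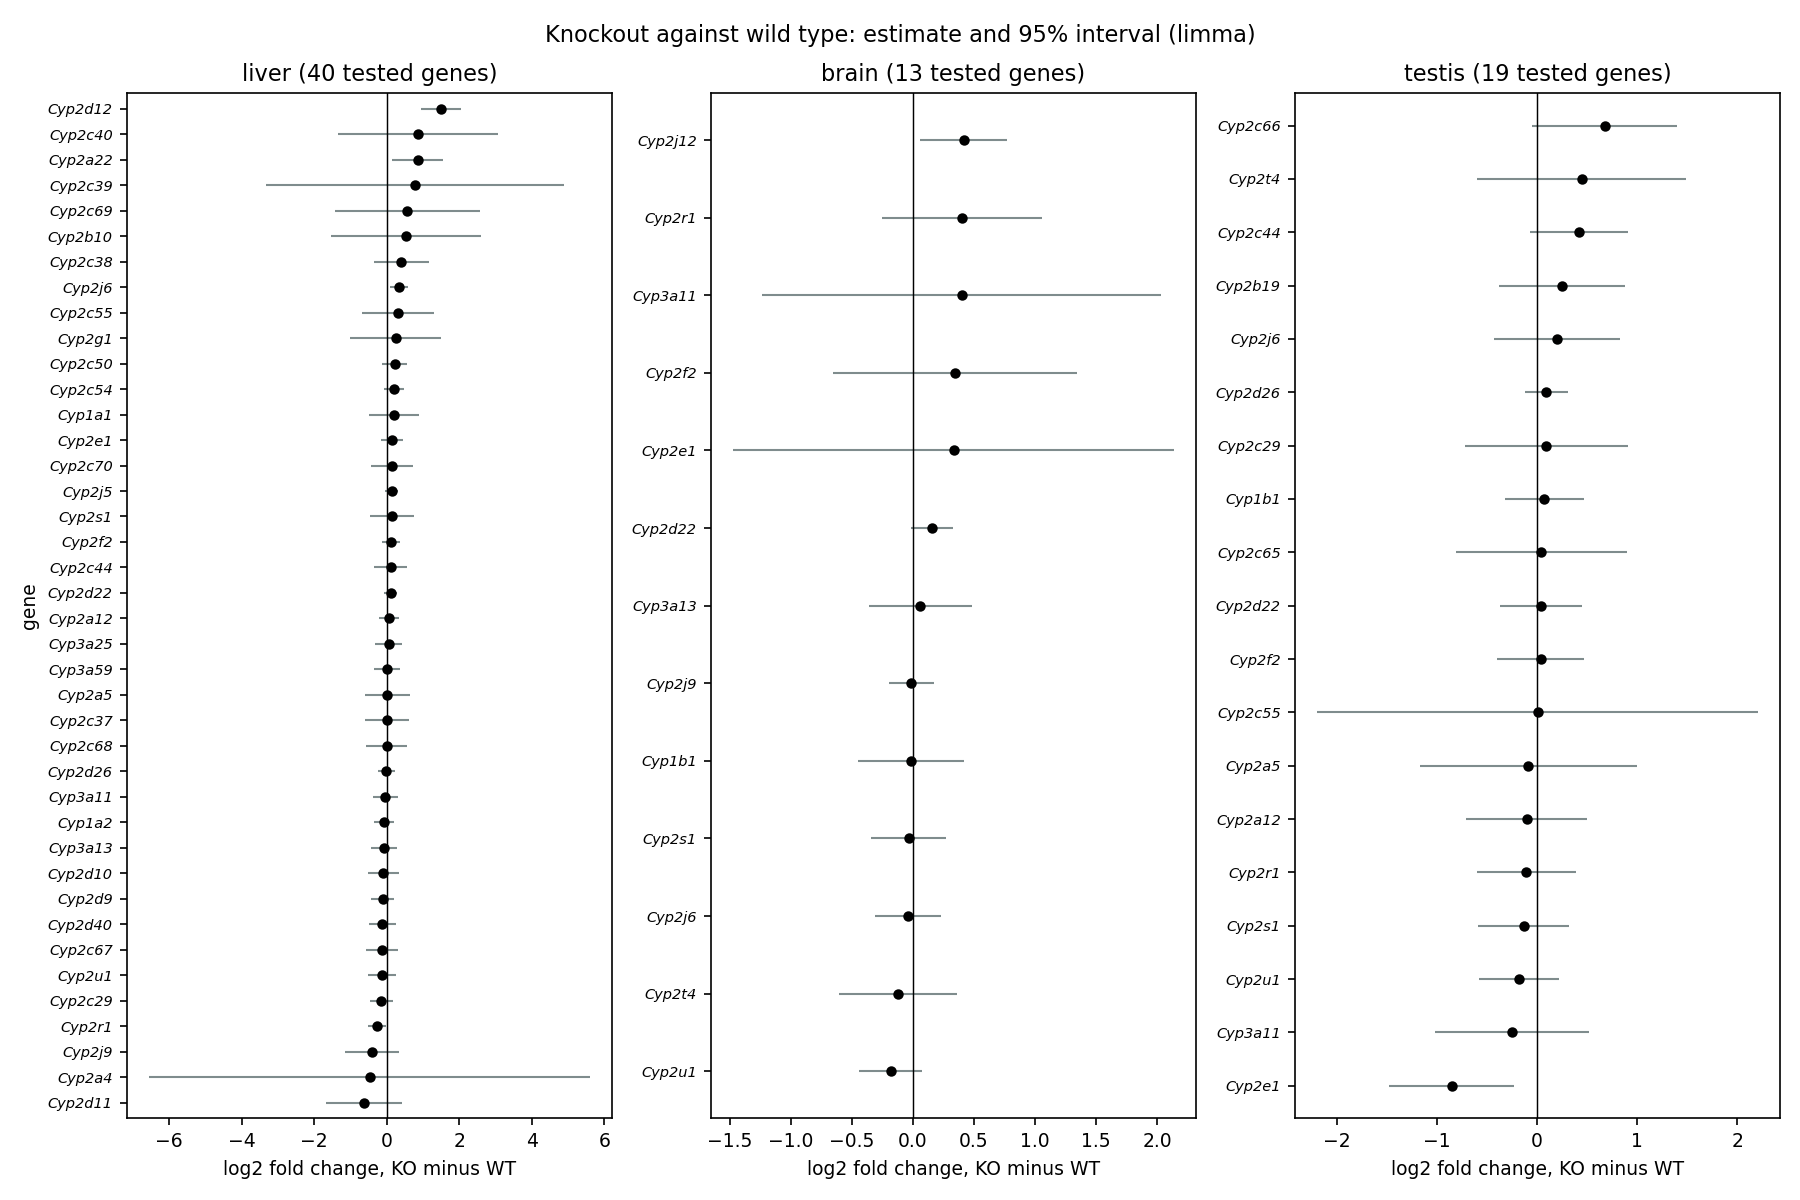
Log2 fold change of KO minus WT (points, limma on log2(FPKM + 0.1)) with its 95% interval (lines) for the 40, 13 and 19 tested genes of liver, brain and testis; each panel has its own x axis. Most estimates lie near 0, Cyp2d12 at 1.49 is the highest in liver, and Cyp2a4 and Cyp2c39 have the widest intervals.

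The genes that differed most in liver differed between libraries of one genotype. Cyp2a4, a testosterone hydroxylase that is higher in females, had 93.9, 0.186 and 2.53 FPKM in KO livers, against 0.564, 154 and 1.74 FPKM in WT livers. It was high in KO 4 and WT 2 and lowest in KO 5 and WT 1, an 829-fold range from 5 to 4092 reads. Its standard deviation within genotype, 4.20 on the log2 scale, ranked 2 among 14124 tested genes. The genotype difference of -0.47 ± 2.57 therefore had a 95% interval from -6.54 to 5.60. Its close paralogue Cyp2a5, the coumarin and nicotine hydroxylase, had 258, 406 and 413 FPKM in KO livers, against 252, 362 and 463 FPKM in WT livers, and did not follow Cyp2a4. The 2 genes share much of their sequence: 11.2% of all 100-base windows of the longest Cyp2a4 transcript occur unchanged in another gene of these families, all of them in Cyp2a5, so how reads in such stretches were assigned is uncertain.

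The promoters of this pair are shown because their levels parted while their sequences hardly do. Both run from base -250 to base -51 before the RefSeq gene start (RefSeq, GRCm38.p6), and capitals mark the aligned bases that differ. The Cyp2a4 stretch lies at chr7:26306942-26307141 and the Cyp2a5 stretch at chr7:26835089-26835288, both on the plus strand. In the alignment 196 bases were the same and 3 differed, an identity of 98.5%.
Cyp2a4: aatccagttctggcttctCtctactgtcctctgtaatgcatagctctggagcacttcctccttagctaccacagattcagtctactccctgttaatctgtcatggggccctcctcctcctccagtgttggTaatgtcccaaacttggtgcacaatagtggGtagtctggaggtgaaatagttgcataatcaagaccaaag
Cyp2a5: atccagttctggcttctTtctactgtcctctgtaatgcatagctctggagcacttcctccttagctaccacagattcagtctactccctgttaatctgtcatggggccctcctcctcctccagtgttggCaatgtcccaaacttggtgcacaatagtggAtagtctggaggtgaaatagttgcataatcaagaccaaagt

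Cyp2c39 (chr19:39510862-39568529), a retinoic acid hydroxylase, had 2.28, 40.9 and 76.6 FPKM in KO livers, against 0.954, 30.1 and 45.9 FPKM in WT livers. It was low in KO 4 and WT 1, and ranked 10 in within-genotype spread. Cyp2c40 (chr19:39767071-39812814), an arachidonic acid hydroxylase, had 27.4, 8.80 and 86.4 FPKM in KO livers, against 13.2, 6.07 and 42.6 FPKM in WT livers, with its maximum in KO 6 and WT 3 and rank 46. Its neighbour Cyp2c69 (chr19:39842660-39886769) had 8.91, 2.95 and 29.1 FPKM in KO livers, against 5.54, 3.07 and 13.6 FPKM in WT livers, with the same order of libraries within each genotype and rank 63. Of the 100-base windows of the longest Cyp2c40 transcript, 44.1% occur unchanged in another gene of these families, and of those of Cyp2c69 36.3%, so how their shared reads were split is uncertain.

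The libraries are also numbered 1 to 3 within each genotype in the file headers, which sets KO 4 beside WT 1, KO 5 beside WT 2 and KO 6 beside WT 3. In each of these 3 pairs Cyp2c39, Cyp2c40, Cyp2c50 and Cyp2c54 were higher in the KO liver. Cyp2c29 and Cyp2c67 were lower in the KO liver in each pair, and the other tested Cyp2c genes were mixed. The share of all genes with the 3 pairs in 1 direction was not counted. A fit with the number as a block gave 0.86 ± 0.12 for Cyp2c40 (unadjusted p = 0.000608, adjusted p = 0.276) and 0.78 ± 0.15 for Cyp2c39 (adjusted p = 0.338), against SEs of 0.94 and 1.74 without the block. For Cyp2c50 it gave 0.22 ± 0.07 (unadjusted p = 0.0256, adjusted p = 0.595) and for Cyp2c54 0.21 ± 0.08 (unadjusted p = 0.0545, adjusted p = 0.662). None of the 4 passed the adjusted threshold in either fit. All 15 Cyp2c genes lie on chromosome 19, as does Pcgf6, with 14 of them between chr19:39007019-40187333 and Cyp2c44 at chr19:44005022-44029208. Whether the position near the targeted gene bears on these values was not tested.

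The Cyp2c40 and Cyp2c69 promoters are shown because the 2 genes had the same order of libraries. Both stretches run from base -250 to base -51 before the RefSeq start on the minus strand, at chr19:39812865-39813064 for Cyp2c40 and chr19:39886820-39887019 for Cyp2c69, and capitals again mark aligned bases that differ. The alignment leaves 60 bases unpaired at the ends; of the rest 167 were the same and 3 differed (98.2% identity).
Cyp2c40: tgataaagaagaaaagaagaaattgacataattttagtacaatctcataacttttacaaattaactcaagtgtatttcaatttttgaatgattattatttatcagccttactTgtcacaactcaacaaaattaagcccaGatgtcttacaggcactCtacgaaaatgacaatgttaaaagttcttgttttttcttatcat
Cyp2c69: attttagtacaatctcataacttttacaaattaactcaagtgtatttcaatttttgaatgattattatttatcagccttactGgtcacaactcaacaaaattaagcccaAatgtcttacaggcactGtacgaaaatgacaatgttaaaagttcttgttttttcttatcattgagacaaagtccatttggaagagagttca

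RefSeq promoter windows from 250 bases before to 50 bases after the start were matched for 50 of the 58 genes. The letters CACGTG, the palindromic E-box read by MAX and its partners, of which MGA belongs to the PCGF6 complex, occurred in 1 of the 50 (2%, Cyp2j6), beside 7.24% of all 27025 promoters. The letters GCGTG or their reverse complement CACGC, the core of the dioxin-receptor element, occurred in 9 of 50 (18%), Cyp1a1 and Cyp1b1 among them, beside 32.5% of all promoters. Both motifs were counted on both strands, and neither contains the other.

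Cyp2b10, the CAR-induced gene of liver, had 5.43, 3.15 and 0.549 FPKM in KO livers, against 1.07, 3.87 and 0.731 FPKM in WT livers, and ranked 59 in spread. The groups overlapped. The female-biased Cyp2b9 and Cyp2b13 had at most 0.429 FPKM in any liver. In all, 5 of the 40 tested genes were among the 1% of liver genes with the widest within-genotype spread, and the median standard deviation was 0.26 over the 40 and 0.20 over all tested genes on the log2 scale. At the other end, Cyp2j5 had a standard deviation of 0.03 and ranked 14063 of 14124.

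**Figure D3:**
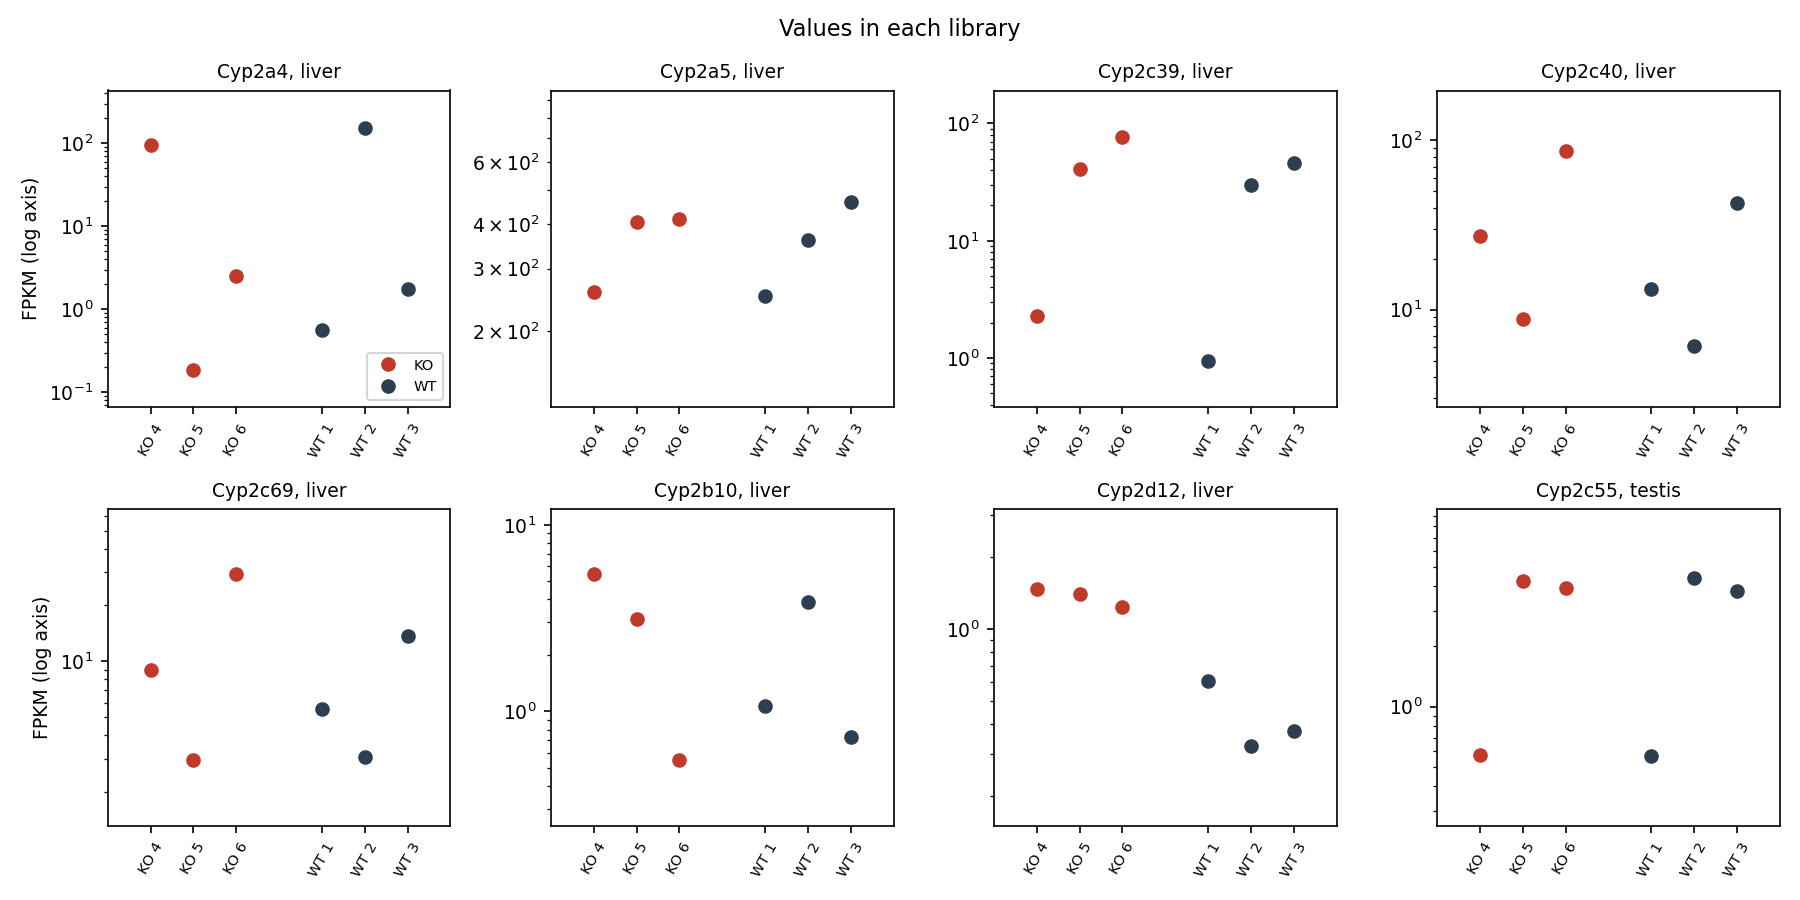
FPKM in each library (log axes, each panel its own range; KO left of WT) of Cyp2a4, Cyp2a5, Cyp2c39, Cyp2c40, Cyp2c69, Cyp2b10 and Cyp2d12 in liver and of Cyp2c55 in testis. Cyp2a4 reaches 93.9 in KO 4 and 154 in WT 2 against at most 2.53 elsewhere, and Cyp2d12 is the one panel in which the 2 genotypes do not overlap.

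Genes that work with these enzymes were examined as lists. Over 28 lists of such genes and of cell type markers, 0 genes passed the adjusted threshold in limma in each tissue. Among the xenobiotic receptors and their partners (Ahr, CAR, PXR and cofactors), 11 of 21 tested genes had a higher estimate in KO livers, with a median log2 fold change of 0.00 and 0 genes at an unadjusted p under 0.05 (1 with the replicate block). Of 20 genes of electron supply and haem synthesis 8 were higher, with a median of -0.06, and 4 had an unadjusted p under 0.05 (7 with the block), beside 4.38% of all tested genes (7.61% with the block). One of these was Alas2, a haem synthesis enzyme of red cells, at 89.3 ± 1.97 FPKM in KO and 72.9 ± 8.03 FPKM in WT livers (adjusted p = 0.967). Of 48 conjugating enzymes 29 were higher, with a median of 0.10, and 8 had an unadjusted p under 0.05 (12 with the block), beside the same shares of all tested genes. The sulfotransferase Sult1c2 had 2.85 ± 0.0431 FPKM in KO and 1.60 ± 0.185 FPKM in WT livers (adjusted p = 0.485). The lists of male-biased and female-biased liver genes, which include members of these families, gave 13 of 23 and 10 of 14 with a higher estimate and medians of 0.02 and 0.45. They held 2 and 2 genes at an unadjusted p under 0.05 (4 and 7 with the block), beside the same shares of all tested genes. The list of fatty acid P450 genes and partners of the receptor PPARa had 15 of 20 with a higher estimate and a median of 0.30. Of the 20, 4 had an unadjusted p under 0.05 (9 with the block), beside the same shares of all tested genes. In that list Vnn1 had the smallest p in limma, with a log2 difference of 1.19 ± 0.21 (adjusted p = 0.485). The fatty acid hydroxylase Cyp4a10 came next, with 204 ± 55.1 FPKM in KO and 98.3 ± 37.8 FPKM in WT livers (1.08 ± 0.30, adjusted p = 0.808). The summed Kupffer cell and macrophage markers ran from 277 to 465 CPM in KO livers and from 225 to 536 in WT livers, and all 10 were detected. Their part in the liver values was not tested.

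In brain, where several of these enzymes make signalling lipids from arachidonic acid, 13 of the 58 genes were tested. Cyp2d22 was the highest, with 8.06, 9.64 and 9.07 FPKM in KO brains, against 7.93, 8.03 and 7.93 FPKM in WT brains, without overlap (0.16 ± 0.07, adjusted p = 0.9998). The epoxygenase Cyp2j9 had 6.22 ± 0.609 FPKM in KO and 6.26 ± 0.153 FPKM in WT brains, and Cyp2j6 had 4.17 ± 0.486 FPKM in KO and 4.29 ± 0.522 FPKM in WT brains. Below them Cyp2s1, Cyp2j12, Cyp2u1 and Cyp2t4 all lay between 0.772 and 1.93 FPKM, a set whose neighbours overlapped. Cyp2u1, a fatty acid hydroxylase of brain, had 1.01, 0.953 and 0.999 FPKM in KO brains, against 1.20, 1.10 and 1.10 FPKM in WT brains, with no overlap (-0.18 ± 0.11, adjusted p = 0.9998). Cyp2j12, of which no read was found in liver or testis, had 1.34, 1.93 and 1.38 FPKM in KO brains, against 1.11, 1.10 and 1.15 FPKM in WT brains. Its groups did not overlap either, and its log2 difference of 0.42 ± 0.15 had an unadjusted p of 0.0278 and an adjusted p of 0.9998.

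None of the 13 genes passed in limma in brain (0 called, beside 0.0837% of 17922 tested genes; 0 also with voom). With an unadjusted p under 0.05 there was 1, Cyp2j12, which is 7.69% beside 4.46% of all tested genes. The genotypes did not overlap for 3 genes, 2 above and 1 below, which is 23.1% of 13 genes beside 9.08% of all tested genes. All 13 estimates lay within 0.5 of 0, with a median of 0.06 beside 0.01 over all tested genes. Family 1 summed to 4.85 ± 0.599 CPM in KO and 5.11 ± 1.56 in WT brains, and family 2 to 98.5 ± 8.47 in KO and 96.9 ± 6.67 in WT brains (SD, n = 3 each). Exact two-sided permutation tests gave p = 0.9 for family 1 and p = 1 for family 2.

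In brain Cyp2e1, Cyp3a11 and Cyp2c29 moved with Alb. Cyp2e1 had 0.0742, 0.375 and 0.396 FPKM in KO brains, against 0.0167, 0.0854 and 0.848 FPKM in WT brains, and Cyp3a11 had 0, 0.310 and 0.219 FPKM in KO brains, against 0.0141, 0.00723 and 0.367 FPKM in WT brains. Both were highest in KO 5, KO 6 and WT 3. Alb had 0.410, 4.24 and 5.47 FPKM in KO brains, against 0.0154, 0.0472 and 9.55 FPKM in WT brains, with the same 3 libraries highest. Those 3 libraries also held the sperm protamine transcript Prm2 at 1.89, 1.12 and 0.860 FPKM, against at most 0.0448 FPKM in the other 3. Livers carried Prm2 too, at 0, 1.23 and 1.99 FPKM in KO 4, KO 5 and KO 6, against 0.337, 0.146 and 0.0751 FPKM in WT libraries. Its part in the liver values was not tested. Within-genotype spread ranked Cyp2e1 50 and Cyp3a11 66 of 17922 brain genes. Cyp1a2, Cyp2c37, Cyp2d10, Cyp2d26 and Cyp3a25, all high in liver, were also highest in brain KO 5, KO 6 and WT 3. Each had at most 9 reads in a brain library. Cyp2a5, Cyp2f2, Cyp2j5 and Cyp3a13, also high in liver, did not follow the same order, and the share of liver genes that did was not counted. Cyp2a5 had 0, 0.0532 and 0.125 FPKM in KO brains, against 0.0869, 0.267 and 0.371 FPKM in WT brains, so that WT 2, low in Alb, lay above KO 5 and KO 6. Cyp3a13 stayed between 0.171 and 0.264 FPKM in all 6 brain libraries. The part that this Alb signal has in the brain values of Cyp2e1 and Cyp3a11 was not tested. Cyp2d22 and Cyp2j9 differed by at most 1.22-fold over the 6 brain libraries.

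**Figure D4:**
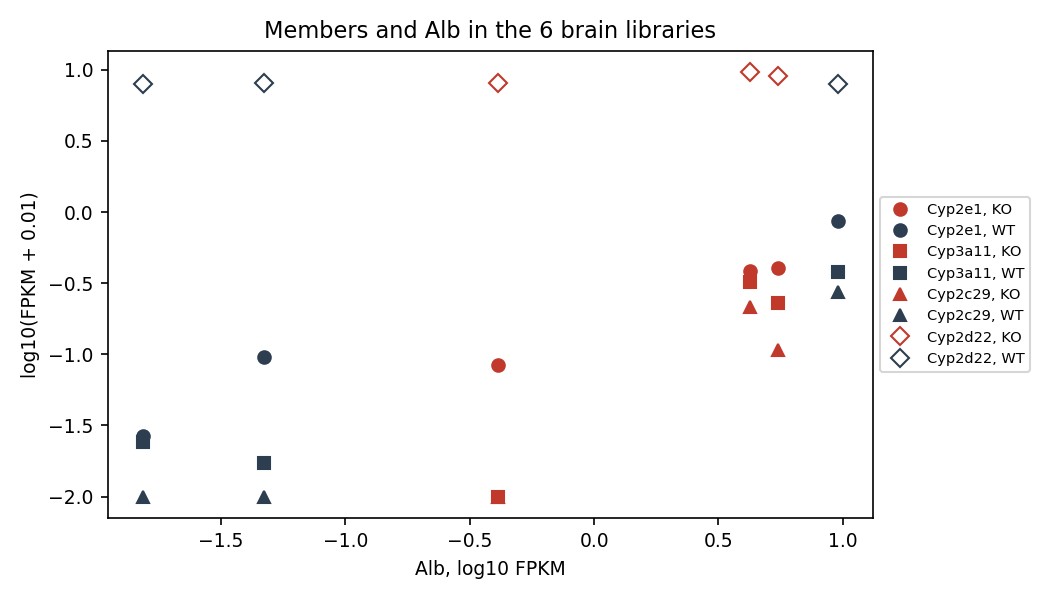
Level of Cyp2e1, Cyp3a11, Cyp2c29 and Cyp2d22 (y axis, log10(FPKM + 0.01)) against Alb (x axis, log10 FPKM) in the 6 brain libraries, KO in red and WT in dark blue. The 3 libraries with Alb above 4 FPKM have the highest Cyp2e1, Cyp3a11 and Cyp2c29, and Cyp2d22 lies between 7.93 and 9.64 FPKM throughout.

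In testis 19 genes were tested. Cyp2d26 was the highest, with 12.6, 11.0 and 11.9 FPKM in KO testes, against 10.5, 11.4 and 11.3 FPKM in WT testes. Cyp1b1, which hydroxylates oestrogens and carcinogens outside the liver, had 4.11 ± 0.625 FPKM in KO and 3.91 ± 0.600 FPKM in WT testes, and was the one family 1 gene with its highest level there. Cyp2a12, a steroid hydroxylase, had 4.41, 2.28 and 2.85 FPKM in KO testes, against 3.62, 3.76 and 2.63 FPKM in WT testes. The libraries of Cyp1b1, Cyp2a12 and Cyp2d22 overlapped, so these neighbours in the order are not separated.

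Cyp2e1 was the testis gene with the lowest p, at 1.19, 1.22 and 1.503 FPKM in KO testes, against 3.16, 1.56 and 2.85 FPKM in WT testes, from 58, 66 and 80 reads and from 164, 87 and 150 reads. Every KO testis lay below every WT testis, narrowly so for KO 6 and WT 2. The log2 difference of -0.85 ± 0.27 had an unadjusted p of 0.0144 and an adjusted p of 0.871. The summed Leydig cell markers ran from 664 to 1002 CPM in KO testes and from 733 to 1121 in WT testes, with all 8 detected, and their part in the Cyp2e1 values was not tested. Alb had 3.83, 4.48 and 5.87 FPKM in KO testes, against 5.90, 2.75 and 6.38 FPKM in WT testes. The part that this Alb signal has in the testis values of Cyp2e1 was not tested either. Cyp2c55, an arachidonic acid oxidase known from colon, had 0.576, 4.24 and 3.90 FPKM in KO testes, against 0.563, 4.40 and 3.80 FPKM in WT testes. It was low in KO 4 and WT 1 and ranked 58 of 22341 genes in within-genotype spread, with a genotype difference of 0.01 ± 0.94. In liver Cyp2c55 had 5.43, 2.65 and 2.21 FPKM in KO libraries, against 3.32, 1.44 and 3.36 FPKM in WT libraries, and the libraries numbered KO 4 and WT 1 were not low there.

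Of the 19 testis genes 0 passed in limma, beside 0.00448% of 22341 tested genes, and 0 passed with voom. Cyp2e1 was the 1 gene with an unadjusted p under 0.05 (5.26%, beside 4.13% of all tested genes), and the 1 gene without overlap (5.26%, beside 11.9%). The median log2 fold change was 0.04 over the 19 genes and 0.03 over all tested genes. Cyp2c66 had 0.272, 0.184 and 0.208 FPKM in KO testes, against 0.214, 0.0798 and 0.0421 FPKM in WT testes (0.67 ± 0.31, adjusted p = 0.871). Cyp2c44, an epoxygenase, had 1.02, 0.663 and 1.05 FPKM in KO testes, against 0.713, 0.594 and 0.626 FPKM in WT testes (0.42 ± 0.21, adjusted p = 0.871). Summed families gave exact permutation p-values of 1, 0.3 and 0.3 for families 1, 2 and 3.

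**Figure D5:**
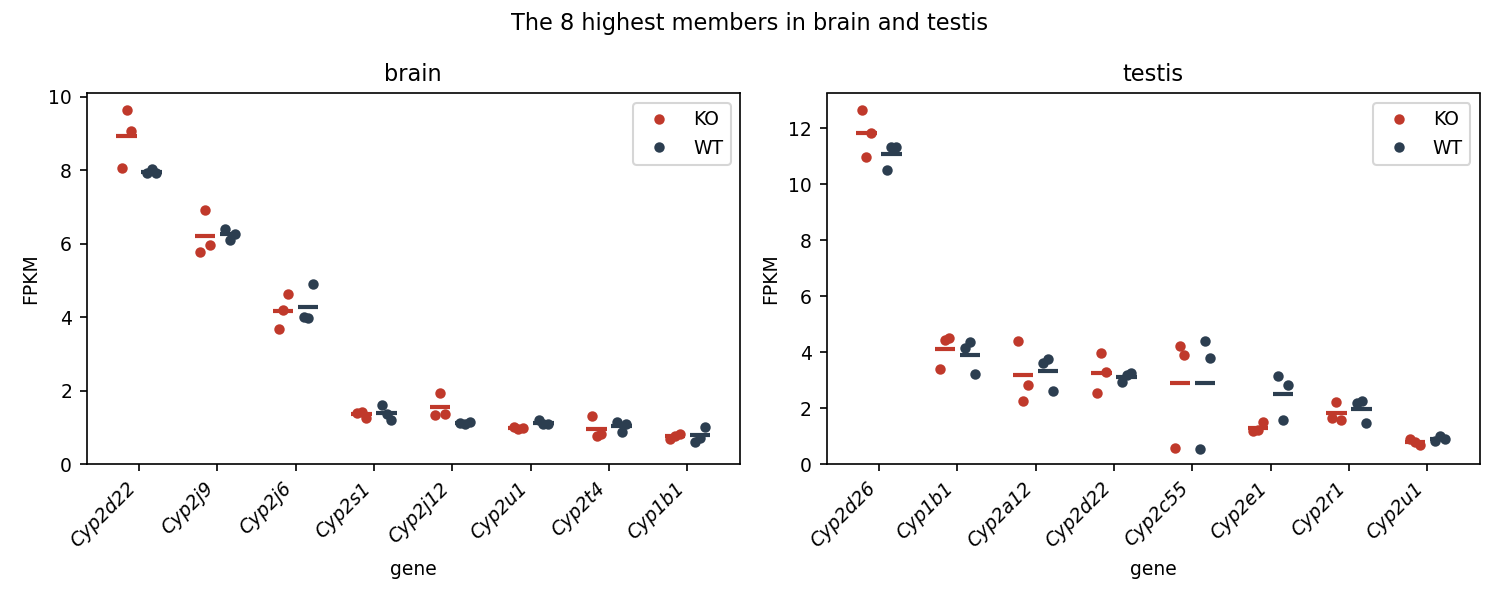
FPKM of the 8 highest genes of brain (left) and testis (right), each point 1 library and each bar the mean of 3, KO left of WT. Cyp2d22 reaches 9.64 FPKM in brain and Cyp2d26 12.6 FPKM in testis; Cyp2c55 in testis splits into 1 low and 2 high libraries in both genotypes.

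The tissue comparisons were made within each genotype. Among WT libraries, 36 of 41 tested genes were higher in liver than in brain and 5 were lower, where 35.3% of all 18166 tested genes were higher and 48.6% lower in liver. The 5 were Cyp1b1, Cyp2j9, Cyp2j12, Cyp2s1 and Cyp2t4. Liver had 2.93 FPKM of Cyp2j9, against 6.26 FPKM in brain (-1.15 ± 0.28, adjusted p = 0.00732), and 0.134 FPKM of Cyp2s1, against 1.40 FPKM in brain (-2.69 ± 0.18, adjusted p = 9.80e-06). Cyp2d22 was among the higher ones, with 125 FPKM in liver and 7.96 FPKM in brain (3.96 ± 0.05, adjusted p = 7.26e-09), as was Cyp2j6, with 31.0 FPKM in liver and 4.29 FPKM in brain (2.82 ± 0.12, adjusted p = 9.85e-07). The median log2 difference over the 41 genes was 8.20, or 8.49 with the 6 genes that had a tissue at 0 set to 3 reads over that group, beside -0.32 over all tested genes.

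Against testis, 35 of 40 tested genes were higher in WT liver, beside 29.9% of 21737 tested genes, 3 were lower, beside 57.8%, and 2 did not pass. Lower in liver were Cyp1b1, with 0.0988 FPKM in liver and 3.91 FPKM in testis (-4.32 ± 0.16, adjusted p = 3.80e-07), Cyp2b19 and Cyp2s1. Not called were Cyp2c55, with 2.71 ± 1.10 FPKM in liver and 2.92 ± 2.06 FPKM in testis, and Cyp2a4. Between testis and brain the order was mixed: 9 of 20 tested genes were higher in WT testis, beside 50.1% of 22836 tested genes, 7 were lower, beside 35.9%, and 4 did not pass. Cyp2d26 had 11.1 FPKM in testis, against 0.0741 FPKM in brain (6.18 ± 0.39, adjusted p = 3.73e-06), while Cyp2j9 had 0.0977 FPKM in testis, against 6.26 FPKM in brain (-5.03 ± 0.18, adjusted p = 1.80e-07). In KO libraries 37 genes were higher and 5 lower of 42 in liver against brain, beside 35.5% and 48.7% of all tested genes. In liver against testis 37 were higher and 4 lower of 42, beside 30.6% and 59%, and in testis against brain 10 were higher and 6 lower of 20, beside 51.8% and 37.2%.

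FPKM values were scaled across tissues by the authors, and this scaling bears on the tissue differences. Total reads were 1.44 to 1.52 times the implied library size in liver, 0.806 to 0.835 times in brain and 0.823 to 0.969 times in testis. Scaling by total reads instead shifted the median over all genes by -0.75 in liver against brain and by -0.56 in liver against testis on the log2 scale. Under that scaling 24.5% of all calls between liver and brain were higher in liver, against 42.1% with the deposited scaling. Between liver and testis the share was 23.8%, against 34.0% with the deposited scaling. For the P450 genes it left 35 higher and 5 lower in liver against brain, 35 and 3 in liver against testis, and 9 and 8 in testis against brain.

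Of the same families, 4 protein-coding rows fall outside the naming rule by a trailing letter, a pseudogene suffix or a 2-letter subfamily. Cyp2d37-ps, annotated as protein coding, had 166.8 to 224 FPKM in liver. Cyp3a41a, Cyp3a41b and Cyp2ab1 had at most 0.216 FPKM in any library. The 39 other protein-coding P450 genes had 0 genes called in each tissue, with median log2 fold changes of -0.01 over 27 tested in liver, -0.02 over 16 in brain and 0.02 over 28 in testis.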

How the data were processed

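Poly-A RNA-seq libraries were analysed from the deposited gene tables. The authors deposited FPKM per gene and library; per the submitters' processing notes they used HISAT2 2.0.5, featureCounts 1.5.0-p3 and DESeq2 1.16.1 with mm10. FPKM times gene length gave whole reads in 100% of values (tolerance 0.01 reads), so whole reads were recovered. The library sizes these imply equal those from median-of-ratios scaling of all 18 libraries together. Genes reaching 10 reads in 3 or more of 6 libraries entered limma (version 3.58.1, run in R 4.3.3). The response was log2(FPKM + 0.1), whose pseudocount understates changes of low genes, and p-values were adjusted by Benjamini-Hochberg over all tested genes with a threshold of 0.05. The fits were tested on simulated data in which all genes shared the same spread setting and changes were placed only in genes with more reads. That test therefore does not cover low or variable genes such as Cyp2d12 and Cyp2a4. Alternatives were voom on the recovered reads, other pseudocounts, filters and scaling, a fit over all 18 libraries, leaving out each library, and a replicate block. Intervals are 95% intervals from limma and measure the spread between libraries; floors (3 reads) cover counting error only.

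The file headers number the libraries 1 to 3 in each genotype. Deviations from the group means correlated between same-numbered KO and WT livers in all 3 pairs (0.354, 0.162 and 0.299). Differently numbered liver pairs ran from -0.343 to 0.0600. Deviations sum to 0 within a group of 3 libraries, so positive values in some pairs push the values of others below 0. The contrast is thus partly built in, and the pairing was read from these same data. On that basis the block fit treated the liver libraries as paired by number, although no label says what the number stands for. Same-numbered pairs gave 0.0949, -0.0848 and 0.252 in brain, and 0.0849, -0.0646 and 0.0902 in testis.

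Genes named are Pcgf6, the 8 with the smallest p and the 6 with the highest level in each tissue, and the highest of each subfamily. From the lists only Alas2, Sult1c2, Vnn1 and Cyp4a10 are named. Genes named for their spread, position, promoter or relation to Alb were chosen after their values were seen. The members and lists were chosen with earlier results of these data known. Promoters came from RefSeq (GRCm38.p6).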

Additional observations from a re-analysis of the deposited data

How the results depend on the processing

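Of the counts of called P450 genes and the summed family levels, 3 values moved under an alternative by more than 1.5 times (counts) or by more than the spread between libraries (sums); smaller shifts, such as 35 and not 36 genes higher in liver than in brain under total-read scaling, occurred too. In liver KO against WT, 1 gene (Cyp2d12) was called when 1 model was fitted over 18 libraries, against 0 otherwise. In that model the brain and testis libraries, without reads of Cyp2d12, lower its pooled variance. In testis against brain, requiring at least 50 reads in 3 libraries left 10 calls, 5 up and 5 down, against 16, since fewer genes were tested. The KO minus WT difference of summed family 3 in brain was 25.8% and ran from -2.70% to 155% when single libraries were left out, with 155% without WT 3; the cause was not tested. Other sums shifted within the spread, some with a change of sign: in liver, leaving out WT 3 gave 1.32% for family 1, against -7.60% with all libraries, and 3.32% for family 3, against -4.42%. In testis, leaving out KO 4 gave 9.62% for family 1, against -0.784%, and -6.35% for family 3, against -21.8%. In brain, leaving out WT 3 gave 14.6% for family 1, against -4.91%, and leaving out KO 5 gave -1.47% for family 2, against 1.63%. Without the 3 brain libraries that carry Alb, a choice made after seeing the data, 0 brain genes were called, as with all 6. The fit with the replicate number as a block gave 0 called genes in liver, brain and testis KO against WT. It gave 41, 38 and 16 in liver against brain, liver against testis and testis against brain. The block thus changed no count of called P450 genes between genotypes. Among the lists it called 1 gene, a spermatogonium and spermatocyte marker in brain, where the numbers do not pair the libraries.

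Over all genes, the single model over 18 libraries called 63 higher and 24 lower in KO liver, against 3 and 0, 22 and 5 in brain, against 12 and 3, and 20 and 16 in testis, against 0 and 1. Leaving out the 3 brain libraries with Alb gave 2 higher and 7 lower. For named genes, 15 of 311 alternative estimates in liver, 20 of 187 in brain and 19 of 232 in testis changed sign, all of them uncalled. Of the same estimates, 8 in liver, 12 in brain and 10 in testis moved by more than their standard error, and 1 became called, that of Cyp2d12. With 3 libraries a group, low genes such as Cyp2d12 and Cyp2a22 rest on 8 to 35 reads a library.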
